A study of Homo sapiens with 9 samples.

Results

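Telomerase and shelterin, the enzyme that lengthens chromosome ends and the complex that covers them, were followed through 10 genes. The deposited tables held 16222 genes. The 10 were found by symbol: TERT, DKC1, NOP10, NHP2 and GAR1 for the telomerase proteins, and TERF1, TERF2, POT1, ACD and TINF2 for shelterin. All 10 had a value in every library and passed the filter on low counts. TERT was selected on its counts in LPS against control libraries, where earlier results of these data had shown it much lower with LPS. TERT is therefore described without a test in any comparison. The other 9, called partners here, were taken for their known function and were tested.

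RNA was sequenced from THP-1 cells, an established human monocytic leukaemia line that PMA, a phorbol ester, turns into adherent macrophage-like cells. All 9 libraries came from wild-type THP-1 cells given PMA, and the 3 groups differed in what followed: LPS together with ABS (LPS_ABS), LPS alone (LPS), or PBS (control), with 3 libraries each. LPS is a bacterial cell wall component that macrophages sense. ABS is not spelled out in the labels, and the title of the series concerns apoptotic bodies in hydrogel microspheres. Doses and times are not given in the sources used here. Nothing in the labels ties the libraries of a group to separate cultures; the p-values then describe only how these libraries vary, and that variation may be technical.

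Telomerase is a reverse transcriptase. Its catalytic subunit TERT copies a template within the telomerase RNA, TERC, and so adds repeats to chromosome ends. DKC1 (dyskerin), NOP10, NHP2 and GAR1 form a protein complex at the H/ACA end of that RNA. The same proteins serve the H/ACA RNAs that guide pseudouridylation of ribosomal and spliceosomal RNA. Shelterin covers the repeats, keeps chromosome ends from being read as breaks and controls the access of telomerase. Most differentiated cells keep TERT silent, whereas leukaemia lines usually transcribe it.

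Total counts lay between 38506162 and 38893597 in LPS_ABS, 39168526 and 41679412 in LPS, and 39791729 and 41608801 in control libraries. The LPS_ABS group was not uniform, and LPS_ABS 3 stood apart. In the 5519 genes whose LPS and control libraries did not overlap, the median position between the LPS mean (0%) and the control mean (100%) was 28.5% for LPS_ABS 1, 30.6% for LPS_ABS 2 and 76.6% for LPS_ABS 3. Counts also differed in how they followed the GC content of transcripts. The slopes, relative to the mean of all libraries, were 0.23, 0.33 and 0.37 log2 units per 10 GC points in LPS_ABS libraries. They were -0.31, -0.02 and -0.12 in LPS and -0.17, -0.16 and -0.14 in control libraries. A technical trend and a treatment effect that follows GC content cannot be told apart here, because the slopes differed by treatment group. A correction for the trend takes off both. For results that involve LPS_ABS, a correction for this trend and the omission of LPS_ABS 3 are therefore given beside the counts of calls and wherever they end or make the call of a named gene. All 12 monocyte and macrophage markers looked up were tested, and their summed level was 1731 to 2044 CPM (counts scaled to library size) in LPS_ABS, 1436 to 1598 CPM in LPS and 1355 to 1426 CPM in control libraries. Markers of T cells, fibroblasts, endothelium, epithelium and cartilage summed to at most 1.66 CPM in any library, and B cell markers to at most 8.83 CPM. These sums cover only markers with a deposited value: 1 of 5 for T cells, 4 of 5 for fibroblasts and 3 of 4 for endothelium. It was 2 of 4 for epithelium, 1 of 3 for cartilage and 3 of 4 for B cells. The part of these levels in the results below was not tested.

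The start regions of the H/ACA proteins are shown because DKC1, GAR1 and NOP10 took part in the main pattern across libraries, unlike NHP2. Each is the 250 bases before the RefSeq start site in GRCh38.p14, 5′ to 3′ on the gene's strand. Capitals mark matches, on either strand, to an E-box (CACGTG), an ETS core (CCGGAA), the box spelled CCAAT, or a GC box (GGGCGG). DKC1 lies at chrX:154762614-154762863 (plus strand), GAR1 at chr4:109815260-109815509 (plus strand, the first of its 2 listed start sites), NOP10 at chr15:34343137-34343386 (minus strand) and NHP2 at chr5:178153886-178154135 (minus strand).
DKC1: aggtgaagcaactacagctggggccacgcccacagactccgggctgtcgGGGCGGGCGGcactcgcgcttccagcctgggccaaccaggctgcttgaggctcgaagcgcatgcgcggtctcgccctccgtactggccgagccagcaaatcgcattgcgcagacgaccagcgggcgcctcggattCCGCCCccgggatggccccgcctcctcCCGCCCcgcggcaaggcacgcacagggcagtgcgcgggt
GAR1: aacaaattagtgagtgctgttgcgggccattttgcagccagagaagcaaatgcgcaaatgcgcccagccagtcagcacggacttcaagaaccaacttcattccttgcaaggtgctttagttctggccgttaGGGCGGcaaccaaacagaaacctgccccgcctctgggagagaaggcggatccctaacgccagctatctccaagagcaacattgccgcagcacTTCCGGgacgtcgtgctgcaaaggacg
NOP10: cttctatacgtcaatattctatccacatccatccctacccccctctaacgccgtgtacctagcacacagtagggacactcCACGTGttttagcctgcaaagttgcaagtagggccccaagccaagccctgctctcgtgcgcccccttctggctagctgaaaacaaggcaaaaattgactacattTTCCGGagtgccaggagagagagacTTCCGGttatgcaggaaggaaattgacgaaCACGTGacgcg
NHP2: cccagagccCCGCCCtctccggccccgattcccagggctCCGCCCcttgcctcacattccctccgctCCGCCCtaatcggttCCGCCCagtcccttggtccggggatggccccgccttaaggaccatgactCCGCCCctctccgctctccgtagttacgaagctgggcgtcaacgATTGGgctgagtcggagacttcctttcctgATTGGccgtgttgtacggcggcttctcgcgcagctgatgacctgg
These 4 regions had different letters. DKC1 held 4 GC boxes, of which 2 overlap, NHP2 held 5 GC boxes and 2 CCAAT boxes, and GAR1 held 1 ETS core and 1 GC box. The region of the second listed start site of GAR1, not shown, held 1 CCAAT box and no other match. NOP10 held 2 E-boxes and 2 ETS cores and no GC box. In the region of TERT a match was found to 1 E-box and 2 GC boxes. Of the 35116 start regions of the same length, 6.34% held the E-box, 14.5% the ETS core, 32.0% the CCAAT box and 42.6% the GC box. These are matches of letters, not binding sites.

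Per transcript length, the members spanned a wide range. The deposited FPKM values (counts scaled to 1 length per gene and to the total count of the library) gave the following order in control libraries, each as mean ± SD over 3 libraries. NOP10, the smallest of the H/ACA proteins, stood highest at 397 ± 14.7 FPKM and NHP2 next at 199 ± 9.82 FPKM. DKC1, the pseudouridine synthase of the complex, followed at 42.6 ± 2.23 FPKM. TINF2, which bridges the other shelterin proteins, stood at 22.5 ± 1.02 and GAR1 at 21.1 ± 1.95 FPKM, and these neighbours overlapped. ACD (also TPP1), which brings telomerase to the telomere, at 15.3 ± 1.60 and TERF2, a binder of double-stranded repeats, at 14.8 ± 1.44 FPKM overlapped too. TERF1, the other double-strand binder, stood at 6.20 ± 0.403 and POT1, which binds the single-stranded overhang, at 4.17 ± 0.643 FPKM. TERT was lowest at 1.85 ± 0.255 FPKM. All other neighbours in this order were apart in every control library. The mean of TERT was the lowest also in LPS_ABS (0.841 ± 0.589 FPKM, n = 3) and in LPS (0.399 ± 0.0269 FPKM, n = 3). In LPS_ABS 3, however, POT1 (1.34 FPKM) lay below TERT (1.49 FPKM). NOP10 was highest in both groups, at 487 ± 95.9 and 509 ± 28.8 FPKM. In LPS libraries DKC1 (27.3 to 28.2 FPKM) overlapped TINF2 (25.1 to 28.6 FPKM), unlike in control libraries.

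**Figure D1:**
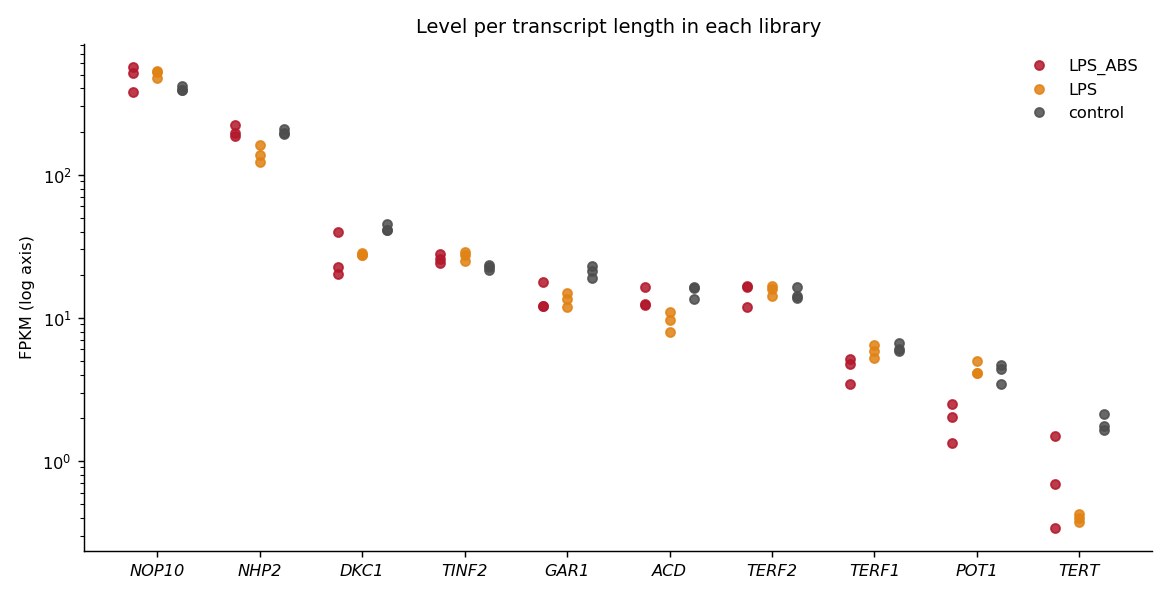
FPKM (log axis) of the 10 members in each library, ordered by their mean in control libraries, with LPS_ABS left of LPS and LPS left of control. NOP10 and NHP2 lie at the top and TERT at the bottom, except in LPS_ABS 3, where POT1 lies lower. The 3 LPS_ABS values of TERT run from 0.340 to 1.49 FPKM while its LPS values stay between 0.373 and 0.427 FPKM.

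With LPS alone, TERT and 4 of its partners (DKC1, NHP2, GAR1 and ACD) were lower in every library than in any control, and 2 (NOP10 and TINF2) were higher. TERT had 1.54, 1.70 and 1.52 CPM in LPS libraries, against 6.38, 6.81 and 8.44 CPM in control libraries, which rests on 67, 71 and 59 counts against 266, 296 and 343 counts. Each LPS library thus lay far below each control library, at a log2 fold change of -2.18 (n = 3 each), or -2.13 after the GC correction. In bulk RNA, fewer cells that make TERT and less TERT RNA per cell cannot be told apart.

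Among the H/ACA proteins, 3 were lower in every LPS library and 1 was higher. DKC1 had 66.3, 66.6 and 67.6 CPM with LPS, against 97.1, 97.1 and 109 CPM in controls. The LPS libraries were nearly identical and all lay below the controls. DKC1 still missed the threshold of an adjusted p under 0.05 (log2 fold change -0.59 ± 0.20, SE, edgeR adjusted p = 0.0627). It passed the threshold after the GC correction (-0.55 ± 0.16, edgeR adjusted p = 0.0279). GAR1, the subunit that joins last in the maturation of these particles, had 14.9, 12.2 and 14.3 CPM with LPS, against 19.2, 21.3 and 23.6 CPM in controls. It fell in both fits (-0.63 ± 0.18, edgeR adjusted p = 0.0315; -0.59 ± 0.14, adjusted p = 0.011 after the GC correction). NHP2 had 120.0, 93.6 and 108 CPM with LPS, against 143, 146 and 160.3 CPM in controls, and fell (-0.48 ± 0.13, edgeR adjusted p = 0.0296), though not past the threshold after the GC correction (-0.45 ± 0.15, adjusted p = 0.054). NOP10 stood on the other side. It had 258, 238 and 265 CPM with LPS, against 189, 189 and 206 CPM in controls, so every LPS library was higher, at 0.38 ± 0.15 (edgeR adjusted p = 0.105).

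Of shelterin, ACD alone passed the threshold. It had 15.7, 22.3 and 20.1 CPM with LPS, against 32.2, 32.0 and 27.2 CPM in controls, and fell at -0.65 ± 0.17 (edgeR adjusted p = 0.0222; -0.61 ± 0.14 and adjusted p = 0.00693 after the GC correction). TINF2 was higher in every LPS library, at 59.0, 53.2 and 59.5 CPM, against 46.4, 48.5 and 45.3 CPM in controls (0.29 ± 0.12, edgeR adjusted p = 0.123). The DNA-binding subunits overlapped between the groups. TERF1 averaged 18.0 ± 1.75 CPM with LPS and 18.7 ± 1.19 CPM in controls, TERF2 45.9 ± 4.09 and 42.9 ± 4.74 CPM, and POT1 17.0 ± 1.47 and 15.8 ± 2.26 CPM (SD, n = 3 each), with edgeR adjusted p of 0.86, 0.715 and 0.783. TERF2IP (RAP1), which binds TERF2 and completes shelterin, averaged 70.4 ± 1.52 CPM with LPS and 67.1 ± 2.69 CPM in control libraries, with an edgeR adjusted p of 0.731.

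In all, 3 of 9 partners were called between LPS and control (edgeR quasi-likelihood test, adjusted p under 0.05), where 14.9% of the 12970 genes tested were called. After the GC correction it was also 3 of 9 (DKC1, GAR1 and ACD; 21.2% of genes). As counted, 7 of 10 members did not overlap, where 42.6% of genes did not. Since the set was built around a difference already seen in this comparison, nothing is read from these counts. As counted, the partner calls changed when a library was left out. Of the partners, 0 were called without LPS 3, control 1 or control 2 (4 had an unadjusted p under 0.05 in each case). ACD alone was called without LPS 2 or control 3, and NHP2 and GAR1 without LPS 1. Leaving out LPS_ABS 3, which is in neither group but enters the shared spread and the filter, gave 5 (20.6% of genes), with DKC1 (edgeR adjusted p = 0.00184) and NOP10 (adjusted p = 0.0192) added. DESeq2 and limma-voom each called 4, with DKC1 added. In the GC-corrected fits, ACD was called without each library in turn, and GAR1 without each but control 3.

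**Figure D2:**
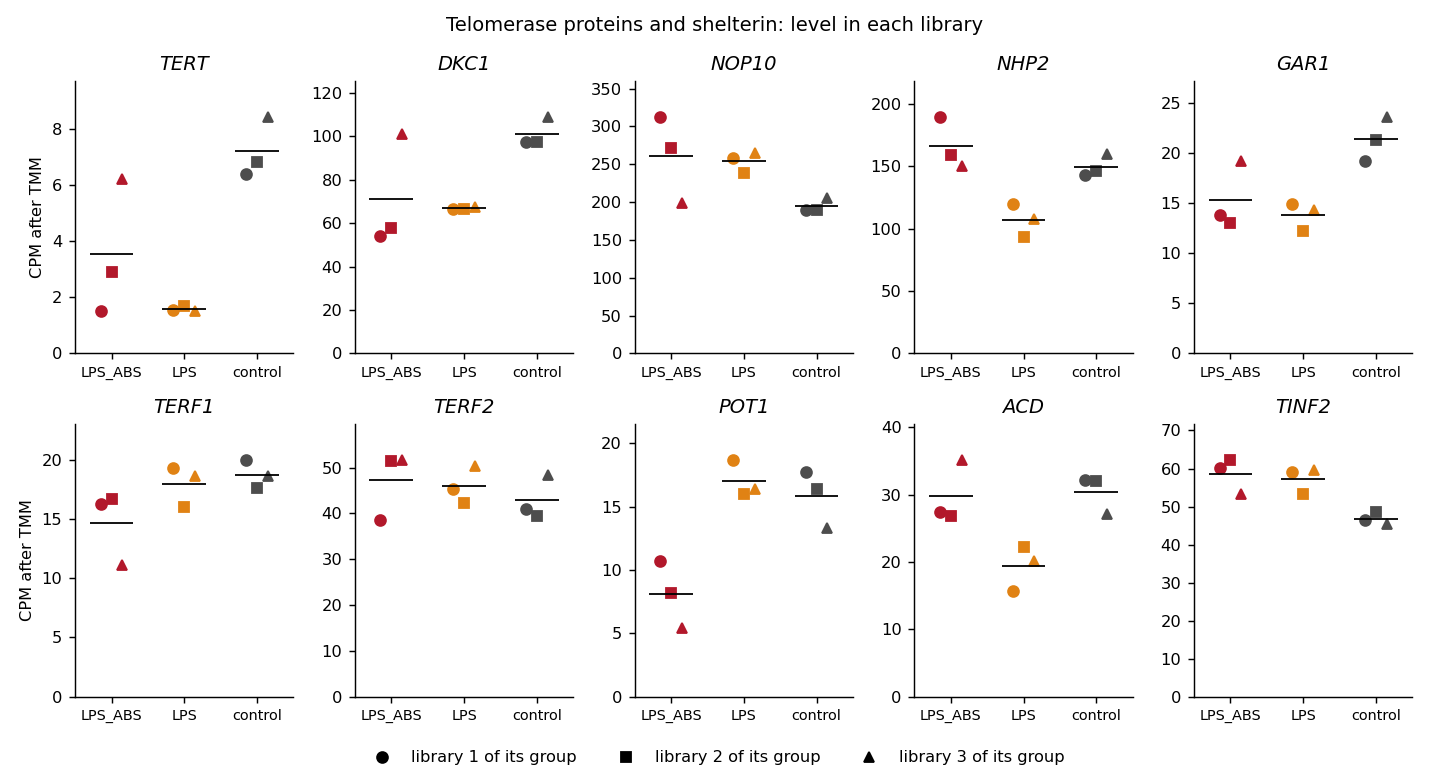
Level of each member in each library as CPM after TMM scaling, with LPS_ABS left of LPS and LPS left of control; symbols mark library 1, 2 or 3 of a group and lines the group means. The triangle of LPS_ABS 3 lies near the controls for TERT, DKC1, NOP10 and GAR1, while the circle and the square of LPS_ABS 1 and 2 lie lower, or, for NOP10, higher.

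Other genes of the pathway were taken from 3 lists drawn up by function, with 62 genes tested; TERC is not analysed here. With LPS 3 rose and 8 fell, where 7.71% of all genes rose and 7.19% fell, at a median log2 fold change of -0.12 against -0.03 over all genes tested. These 11 calls were 7, 6, 5, 7 and 7 without LPS 2, LPS 3, control 1, control 2 and control 3, and 19 and 17 without LPS_ABS 1 and LPS_ABS 3. Without LPS_ABS 3, 20.6% of all genes were called. Of 15 genes for assembly, RNA processing and trafficking of telomerase (median -0.27), ZCCHC8, a scaffold of the nuclear exosome targeting complex, rose (0.82 ± 0.14, edgeR adjusted p = 0.0022). NOLC1, a nucleolar chaperone of H/ACA and C/D particles (-0.91 ± 0.24, edgeR adjusted p = 0.0233), PINX1, a TERT-binding inhibitor of telomerase (-0.52 ± 0.13, adjusted p = 0.0236), and RUVBL1, an ATPase of telomerase assembly, fell. Of 27 genes for capping and replication of telomeres (median -0.09), FEN1, the flap nuclease (-0.65 ± 0.13, edgeR adjusted p = 0.00558), RPA1, a binder of single-stranded DNA (-0.83 ± 0.17, adjusted p = 0.0087), and RTEL1, a helicase that unwinds telomeric loops (-0.79 ± 0.19, adjusted p = 0.0154), fell.

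Of 20 known regulators of TERT transcription (median 0.20), 2 rose and 2 fell with LPS, where 7.71% of all genes rose and 7.19% fell. MXD1 (0.85 ± 0.18, edgeR adjusted p = 0.00993) and MXI1 (0.73 ± 0.14, adjusted p = 0.00484), which compete with MYC for MAX, rose. WT1, a zinc-finger factor known to repress TERT, had 16.7 ± 1.30 CPM with LPS and 36.1 ± 1.50 CPM in controls and fell (-1.11 ± 0.19, edgeR adjusted p = 0.00265), and E2F1 fell too. MYC, the best known activator of TERT and named here outside the rule, averaged 193 ± 11.2 CPM with LPS and 154 ± 6.63 CPM in control libraries (0.33 ± 0.14, edgeR adjusted p = 0.131). Proliferation genes moved beside these: 6 of 16 fell with LPS (MCM4, RRM2, CCNE2, TYMS, MCM2 and PCNA) and 0 rose, against the same shares of all genes. The summed level of the 16 was 3468, 3186 and 2989 CPM in LPS libraries, against 4035, 4049 and 4077 CPM in controls. The part of proliferation in the levels of TERT and its partners was not tested.

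When ABS was given with LPS, the LPS_ABS libraries spread over most of the range between LPS and control for TERT. It had 1.50, 2.91 and 6.22 CPM in LPS_ABS 1, 2 and 3 (53, 108 and 234 counts), against 1.54, 1.70 and 1.52 CPM in LPS libraries. LPS_ABS 1 lay at the level of the LPS libraries, LPS_ABS 2 above all of them and LPS_ABS 3 next to the lowest control. The log2 fold change against LPS was 1.16, and it was 0.71 after the GC correction, 0.48 without LPS_ABS 3 and 0.02 with both. Without LPS_ABS 1, the library at the LPS level, it was 1.53, and 1.09 with the correction. TERT has a GC content of 65.7%, the highest of the 10.

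Of the partners, NHP2 and ACD rose and POT1 fell in LPS_ABS against LPS, and these 3 were also the partners whose libraries did not overlap. NHP2 had 190.0, 159 and 150.3 CPM in LPS_ABS, against 120.0, 93.6 and 108 CPM in LPS (0.64 ± 0.13, edgeR adjusted p = 0.00664). ACD had 27.4, 26.8 and 35.2 CPM in LPS_ABS, against 15.7, 22.3 and 20.1 CPM in LPS (0.62 ± 0.17, edgeR adjusted p = 0.016). POT1 had 10.7, 8.16 and 5.45 CPM in LPS_ABS, against 18.7, 16.0 and 16.4 CPM in LPS (-1.07 ± 0.22, edgeR adjusted p = 0.00639). The GC content was 62.6% for ACD, 57.1% for NHP2 and 37.6%, the lowest of the 10, for POT1. After the GC correction NHP2 stood at 0.25 ± 0.15 (edgeR adjusted p = 0.288), ACD at 0.18 ± 0.13 (adjusted p = 0.387) and POT1 at -0.41 ± 0.14 (adjusted p = 0.0836). All 3 calls ended there. Without LPS_ABS 3 they stood at 0.70, 0.48 and -0.85 for NHP2, ACD and POT1 as counted and at 0.32, 0.04 and -0.31 with the correction.

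The remaining partners had edgeR adjusted p between 0.203 and 0.848 in LPS_ABS against LPS. DKC1 averaged 70.8 ± 26.1 CPM in LPS_ABS and 66.8 ± 0.686 CPM in LPS (SD, n = 3 each), a spread 36.9% of the mean in LPS_ABS and 1.03% in LPS. Its libraries were at 54.0, 57.6 and 101 CPM, so LPS_ABS 1 and 2 lay below every LPS library and LPS_ABS 3 within the range of the controls. LPS_ABS 3 was again the highest for GAR1, at 13.8, 13.0 and 19.2 CPM in LPS_ABS against 12.2 to 14.9 CPM in LPS, and the lowest for NOP10, at 313, 271 and 199 CPM against 238 to 265 CPM. For TERF1, with a GC content of 38.1%, the sign depended on the correction: -0.29 ± 0.17 as counted and 0.39 ± 0.14 after it (edgeR adjusted p = 0.203 and 0.0912). TERF2 stood at 0.04 ± 0.15 and TINF2 at 0.03 ± 0.12 as counted, and at -0.11 ± 0.13 and -0.24 ± 0.12 after the correction.

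So 3 of 9 partners were called in LPS_ABS against LPS as counted, where 35.6% of all genes were, and 0 of 9 after the GC correction, where 9.26% of genes were (edgeR, with 2 of 9 at an unadjusted p under 0.05). In this comparison 3 of 10 members did not overlap, where 46.2% of genes did not, and without LPS_ABS 3 it was 6 of 10 (57.5% of genes), with DKC1 lower and NOP10 and TINF2 higher added. Without LPS_ABS 3 the same 3 partners were called (29.2% of genes), and 0 with the GC correction added (5.55% of genes; edgeR, 4 of 9 at an unadjusted p under 0.05). No other tool was run with the GC correction.

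**Figure D3:**
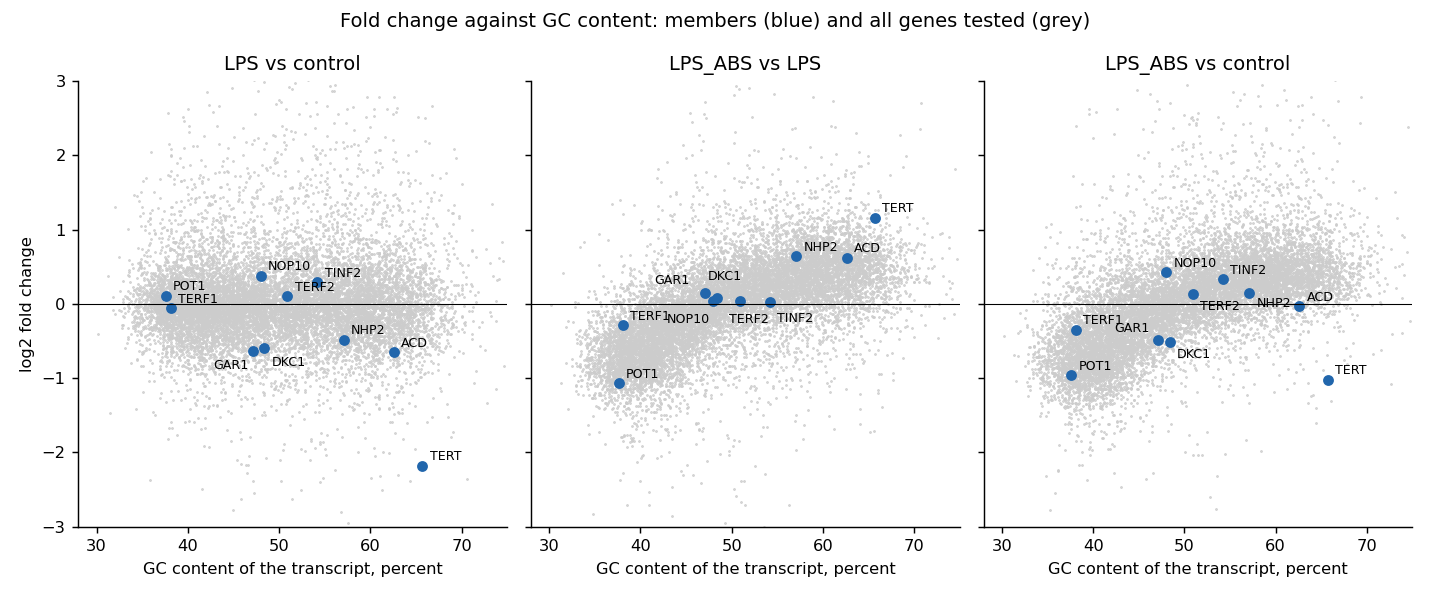
Log2 fold change against the GC content of the longest coding transcript, for all genes tested (grey) and the 10 members (blue), in the 3 comparisons; 74, 17 and 49 genes beyond 3 log2 units are not drawn. In both comparisons of LPS_ABS the cloud climbs with GC content, with POT1 at its low end, while TERT lies below the cloud in both comparisons with control.

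Among the 62 other pathway genes, 12 rose and 17 fell in LPS_ABS against LPS (median 0.00, against 0.02 over all genes), where 16.8% of all genes rose and 18.8% fell. After the GC correction 3 rose and 1 fell, where 5.03% of all genes rose and 4.23% fell. The 29 calls were 16 without LPS_ABS 2, 14 without LPS 1 and 18 without LPS 3, and 21 without LPS_ABS 3 (29.2% of all genes). The 4 after the correction were RTEL1 (1.12 ± 0.19 as counted; 0.69 ± 0.14 and edgeR adjusted p = 0.0138 corrected), E2F1 (0.96 ± 0.13; 0.52 ± 0.10 and adjusted p = 0.0106 corrected), WT1 (1.01 ± 0.19; 0.76 ± 0.17 and adjusted p = 0.0191 corrected) and PRIMPOL, a primase that restarts stalled forks (-1.05 ± 0.18; -0.54 ± 0.16 and adjusted p = 0.0498 corrected). With the correction and without LPS_ABS 3, RTEL1, E2F1 and WT1 were still called, PRIMPOL was not (edgeR adjusted p = 0.112), and HMBOX1, a binder of telomeric repeats named here outside the rule, was (-0.42 ± 0.11, adjusted p = 0.0477). RTEL1 had 43.9 ± 6.88 CPM in LPS_ABS and 20.2 ± 4.74 CPM in LPS, and WT1 33.5 ± 10.3 and 16.7 ± 1.30 CPM (SD, n = 3 each). MEN1, a repressor of TERT (0.68 ± 0.16, edgeR adjusted p = 0.00872), and DCLRE1A, a nuclease of crosslink repair (-1.11 ± 0.20, adjusted p = 0.00486), missed the threshold after the correction, at an adjusted p of 0.112 and 0.0509. The assembly genes named by the rule did so too: RUVBL1 (0.51 ± 0.11) and RUVBL2 (0.52 ± 0.11), partner ATPases, and TGS1, which caps the telomerase RNA (-0.57 ± 0.13), had adjusted p of 0.39, 0.68 and 0.0945 after it. TERF2IP averaged 70.0 ± 3.34 CPM in LPS_ABS and 70.4 ± 1.52 CPM in LPS (edgeR adjusted p = 0.957). Of 16 proliferation genes 7 rose and 2 fell, and 5 rose and 1 fell after the correction (6 and 2 without LPS_ABS 3, 4 and 0 with both). Of all genes, 29.2% were called without LPS_ABS 3 and 5.55% with both. The summed level of the 16 was 3840.3, 3606 and 4199.8 CPM in LPS_ABS 1, 2 and 3.

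**Figure D4:**
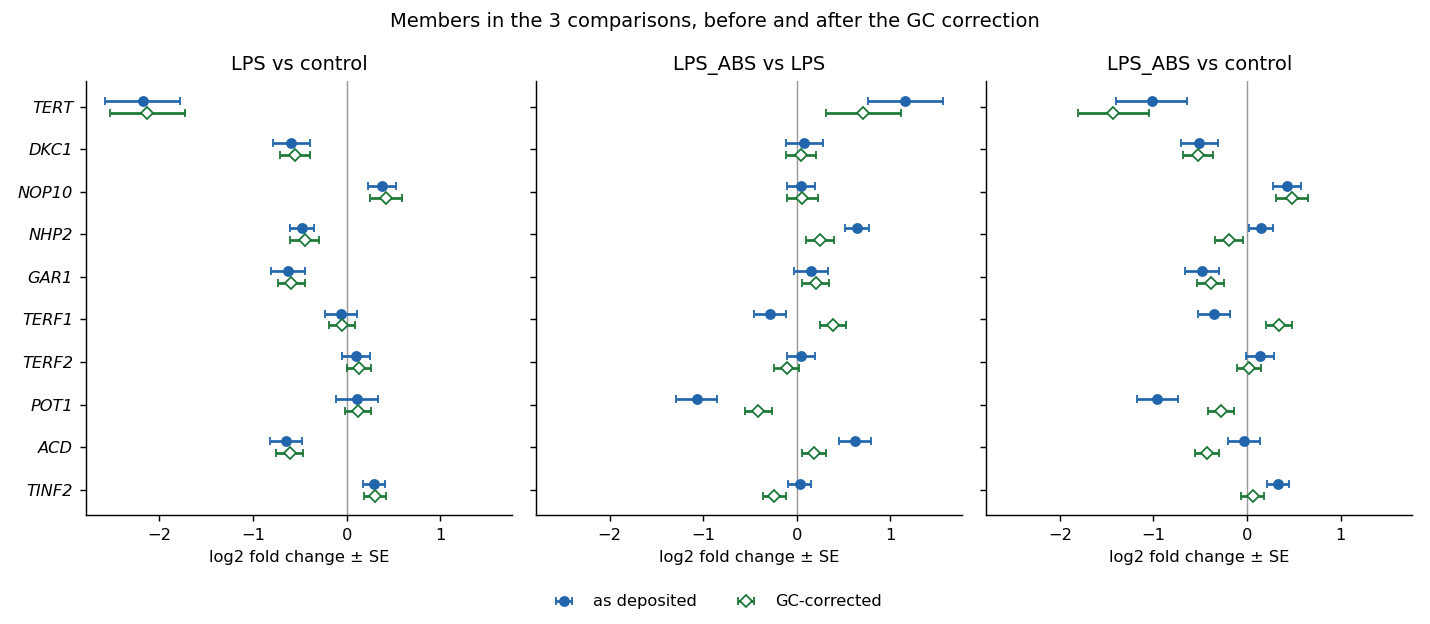
Log2 fold change ± SE of each member in the 3 comparisons, as counted (filled circles) and after the GC correction (open diamonds). Nothing is read from the bars of TERT, which was selected on these data. The pairs lie close together for LPS against control and for DKC1, NOP10 and GAR1 throughout, and they part for TERT, NHP2, TERF1, POT1, ACD and TINF2 where LPS_ABS is involved.

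Against control, TERT was lower in LPS_ABS and by an amount that differed among its libraries. TERT had 1.50, 2.91 and 6.22 CPM in LPS_ABS, against 6.38, 6.81 and 8.44 CPM in control libraries. Every LPS_ABS library was lower, LPS_ABS 3 only just. The log2 fold change was -1.02 as counted, -1.43 after the GC correction, -1.71 without LPS_ABS 3 and -2.11 with both. Without LPS_ABS 1 it was -0.66, and -1.04 with the correction. NOP10 rose, at 261 ± 57.6 CPM in LPS_ABS and 195 ± 9.67 CPM in controls (0.43 ± 0.15, edgeR adjusted p = 0.0436), and missed the threshold after the correction (0.48 ± 0.17, adjusted p = 0.0751). POT1 fell, at 8.10 ± 2.62 CPM in LPS_ABS and 15.8 ± 2.26 CPM in controls (-0.96 ± 0.22, edgeR adjusted p = 0.00714), and was at -0.28 ± 0.14 (adjusted p = 0.209) after the correction. TINF2, higher in every LPS_ABS library (0.33 ± 0.12, edgeR adjusted p = 0.0516), stood at 0.06 ± 0.12 after it. TERF1 was lower in every LPS_ABS library (-0.35 ± 0.17, edgeR adjusted p = 0.128) but stood at 0.34 ± 0.14 after the correction. ACD averaged 29.8 ± 4.67 CPM in LPS_ABS and 30.4 ± 2.82 CPM in controls (-0.03 ± 0.17, edgeR adjusted p = 0.897), and -0.43 ± 0.13 after the correction (adjusted p = 0.0523). NHP2 stood at 0.15 ± 0.13 as counted and -0.19 ± 0.15 after the correction, and TERF2 at 0.14 ± 0.15 (edgeR adjusted p = 0.385, 0.446 and 0.482).

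DKC1 and GAR1 lay close to the threshold. With all libraries they stood at -0.51 ± 0.20 and -0.48 ± 0.18 against control and were not called (edgeR adjusted p = 0.0634 and 0.053), while both were called lower by DESeq2, by limma-voom, with a replicate block and when scaled by total counts. Without LPS_ABS 3, DKC1 fell at -0.86 ± 0.11 (edgeR adjusted p = 5.3e-04) and GAR1 at -0.67 ± 0.16 (adjusted p = 0.00773), NOP10 rose at 0.59 ± 0.11 (adjusted p = 0.00295), TINF2 rose at 0.39 ± 0.11 (adjusted p = 0.0222) and POT1 fell at -0.74 ± 0.18 (adjusted p = 0.0102). With the GC correction added, DKC1 (-0.78 ± 0.10, edgeR adjusted p = 1.9e-04), GAR1 (-0.52 ± 0.14, adjusted p = 0.0192) and NOP10 (0.69 ± 0.11, adjusted p = 8.0e-04) kept their calls, TINF2 and POT1 did not, and ACD gained one (-0.57 ± 0.12, adjusted p = 0.00532). That made 2 of 9 partners called with all libraries (33.8% of all genes), 0 of 9 after the correction (13.0% of genes; edgeR, 5 of 9 at an unadjusted p under 0.05), 5 of 9 without LPS_ABS 3 (35.6%) and 4 of 9 with both (19.9%). LPS_ABS 3 was the LPS_ABS library closest to control for DKC1, GAR1 and NOP10, so its omission widens their differences by construction. Without LPS_ABS 1, DKC1 stood at -0.35, and without LPS_ABS 2, GAR1 stood at -0.37. POT1 was the only partner called in either of these fits, and 0 were with the GC correction added. NOP10 was not called by limma-voom, with a replicate block, when scaled by total counts or in a fit of only the 2 groups. It lost its call without LPS_ABS 1, LPS_ABS 2, LPS 3 or any 1 control library. POT1 was called without each library in turn. In this comparison 4 of 10 members did not overlap, where 50.0% of genes did not, and without LPS_ABS 3 it was 7 of 10 (63.7% of genes), with DKC1 and GAR1 lower and NOP10 higher added.

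The split within LPS_ABS was laid out library by library for the 7 members whose LPS and control libraries did not overlap, a layout chosen after the values were seen. The measure is the position of each LPS_ABS library between the LPS mean (0%) and the control mean (100%) on the log2 scale of CPM plus 0.1. TERT lay at -3.5%, 39.7% and 90.6% in LPS_ABS 1, 2 and 3. DKC1 lay at -51.7%, -36.4% and 100.4%, NOP10 at -80.1%, -26.2% and 90.4%, and GAR1 at 0.5%, -12.2% and 76.9%. For these 4 genes LPS_ABS 1 and 2 were at or beyond the LPS mean, apart from TERT in LPS_ABS 2, and LPS_ABS 3 was near the control mean. For NHP2 and ACD all 3 libraries lay toward control as counted: 170.3%, 118.4% and 101.2% for NHP2, and 77.5%, 73.0% and 132.2% for ACD. TINF2 lay at -25.3%, -42.8% and 33.5%. With the GC trend taken off each library, NHP2 lay at 91.2%, 54.4% and 30.4%, ACD at -4.1%, 16.0% and 71.5%, and TINF2 at 64.6%, 44.2% and 130.5%, so ACD then had LPS_ABS 3 alone near control. TERT then lay at -30.4%, 21.4% and 70.8%, DKC1 at -42.7%, -40.2% and 82.5%, NOP10 at -94.5%, -28.2% and 109.7%, and GAR1 at 24.8%, 1.2% and 71.6%. LPS_ABS 3 stayed the furthest toward control for these 4 genes. As counted, LPS_ABS 3 was the furthest toward control in 6 of these 7 members, NHP2 being the exception, and in 62.2% of the 5519 genes in the same position. DKC1, NOP10 and GAR1 have a GC content of 48.4%, 48.0% and 47.1%, and the fitted GC trend moved them by at most 0.13 log2 units in any library.

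**Figure D5:**
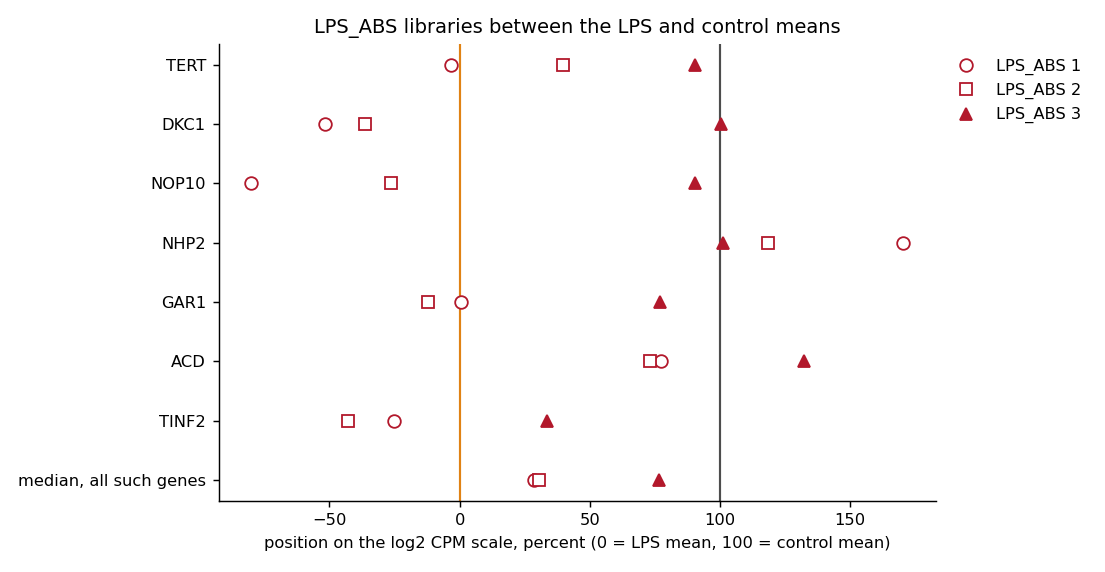
Position of LPS_ABS 1 (open circle), 2 (open square) and 3 (filled triangle) between the LPS mean (0, orange line) and the control mean (100, grey line) in percent, for the 7 members whose LPS and control libraries do not overlap and for the median of the 5519 such genes. The triangle lies between 76.9% and 100.4% for TERT, DKC1, NOP10 and GAR1, with the open symbols of DKC1 and NOP10 below 0%.

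Of the other 62 pathway genes, 10 rose and 20 fell in LPS_ABS against control (median -0.07, against 0.05 over all genes), where 14.8% of all genes rose and 19.0% fell. After the GC correction 7 rose and 10 fell, where 7.94% of all genes rose and 5.05% fell. Without LPS_ABS 3, 10 rose and 18 fell, where 35.6% of all genes were called in either direction. With both, 7 rose and 13 fell, where 19.9% of all genes were called. The 30 calls were 19, 17 and 19 without LPS_ABS 2, control 1 and control 2. The list for capping and replication held 14 of the falls and 3 of the rises (PIF1, CTC1 and TEN1). After the correction it held 7 falls and 3 rises (CTC1, PIF1 and TNKS). The median of this list was -0.47 as counted and -0.07 corrected. The helicases WRN (-1.37 ± 0.17, edgeR adjusted p = 4.9e-04) and BLM (-1.10 ± 0.17, adjusted p = 0.00117) and the nuclease DCLRE1A (-1.29 ± 0.20, adjusted p = 0.00128) led it and kept their calls after the correction, at -0.70 ± 0.13, -0.56 ± 0.13 and -0.66 ± 0.15. WRN had 6.86 ± 1.26 CPM in LPS_ABS and 17.7 ± 1.78 CPM in controls (SD, n = 3 each). Of the assembly genes, TENT4B, a poly(A) polymerase that acts on the telomerase RNA (-1.17 ± 0.22, edgeR adjusted p = 0.00271), and TGS1 (-0.71 ± 0.13, adjusted p = 0.00265) fell and kept their calls (adjusted p = 0.0401 and 0.0313), and COIL, the scaffold of Cajal bodies (-0.73 ± 0.17), did not (adjusted p = 0.218). With the correction and without LPS_ABS 3, TENT4B was not called (edgeR adjusted p = 0.0569) and COIL was (-0.43 ± 0.13, adjusted p = 0.0293). Of the regulators, MXD1 rose (0.84 ± 0.18, edgeR adjusted p = 0.00562; 1.28 ± 0.17 after the correction). USF2, an E-box binder (0.62 ± 0.14), and HIF1A, the hypoxia factor (-0.87 ± 0.19), were called as counted but not after the correction (edgeR adjusted p = 0.268 and 0.444). USF2 was called with the correction once LPS_ABS 3 was left out (0.33 ± 0.10, edgeR adjusted p = 0.0429). TERF2IP averaged 70.0 ± 3.34 CPM in LPS_ABS and 67.1 ± 2.69 CPM in controls (edgeR adjusted p = 0.692). Of 16 proliferation genes 1 rose and 6 fell, and 0 rose and 2 fell after the correction (1 and 9 without LPS_ABS 3, 1 and 3 with both). The shares of all genes in the same fits are those given above.

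The 5 genes whose levels followed TERT most closely over the 9 libraries, by Pearson's r of log2 CPM, were TXNDC5 (0.984), SCFD2 (0.980), GRPEL1 (0.978), RPA1 (0.977) and TWNK (0.975). The libraries fall into treatment groups, so these values describe a shared pattern over groups as much as over single libraries, and no p is given. RPA1 had 56.7, 68.1 and 98.5 CPM in LPS_ABS 1, 2 and 3, against 57.5 to 65.0 CPM in LPS and 105 to 116 CPM in control libraries. On the same measure DKC1 stood at 0.902, GAR1 at 0.900, ACD at 0.754 and NHP2 at 0.413, TERF2, TERF1 and POT1 at 0.0736, -0.134 and -0.219, and TINF2 and NOP10 at -0.815 and -0.868, where the median of all genes was 0.00830. Without LPS_ABS 3 the 5 genes had r between 0.976 and 0.989, DKC1 0.889, GAR1 0.894, ACD 0.719, NHP2 0.392, TERF1 0.380, POT1 0.0509, TERF2 -0.0816, NOP10 -0.852 and TINF2 -0.853 over 8 libraries, with a median over all genes of 0.0514.

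Some members have named pseudogenes or share exon positions with other annotated sequences. TERF1 has 7 and NHP2 has 2 named pseudogenes in RefSeq. In GENCODE 29, exons of NHP2, POT1 and ACD overlap RMND5B, POT1-AS1 and CARMIL2 on the opposite strand, TERF2 overlaps AC026464.3 on its own strand, and DKC1 hosts SNORA36A, SNORA56 and MIR664B. How reads were divided in these places is uncertain, because no source used here gives the strand setting of the counting. TERT, NOP10, GAR1 and TINF2 had no such overlap.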

How the data were processed

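RNA sequencing of 9 THP-1 samples was analysed from deposited tables. The authors deposited raw counts of reads for 16222 genes in each library, and an FPKM table of the same genes. The submitters' processing notes list fastp, HISAT2, HTSeq, DESeq2 and R 3.2.0 without saying what each did. Genome build, annotation and strand setting are not given in the sources used here, and the labels' protocols name both a stranded and another library kit for every sample. The deposited FPKM values were the counts scaled to 1 length per gene and to the library's total.

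The analysis used edgeR 4.0.16 in R 4.3.3 (filterByExpr on group, 12970 genes holding 99.985% of counts, TMM scaling). One model of 3 group means covered the 9 libraries, leaving 6 residual degrees of freedom, and its contrasts were tested by quasi-likelihood F. The SE of a log2 fold change is its absolute value divided by the square root of that F. For TERT, described without a test, no SE is given in the text. P-values were Benjamini-Hochberg adjusted over all genes tested, and genes were called under 0.05. The spread between libraries beyond counting error was 18.4% (common coefficient of variation). For the GC correction, each library's log count, minus the gene's mean over libraries, was smoothed by lowess (span 0.3) over GC content (longest coding transcript, GENCODE 29, found for 99.34% of genes) and entered the model as an offset.

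Columns were matched to samples by title. Alternatives were DESeq2 1.42.0, limma-voom (limma 3.58.1), other scalings, no filter, only the 2 groups compared, a replicate block, and leaving out each library. Positions with the GC trend taken off, and overlaps and correlations without LPS_ABS 3, were added after seeing the data. No 2 libraries of a group were duplicates (lowest chi-square per degree of freedom 7.07).

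Members and lists were chosen with earlier results of these data known. Named were all members, TERF2IP, and per list and comparison the 3 called genes with the smallest adjusted p whose groups did not overlap. The genes most like TERT were the 5 with the highest r among genes whose highest group averaged 100 or more counts a library. Promoters came from RefSeq (GRCh38.p14) and were searched for 8 of the 10 members. TERF1 was left out of the search, and TERF2 had no entry.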

Additional observations from a re-analysis of the deposited data

How the results depend on the processing

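Depth limited mainly TERT, with 53 to 343 counts a library. Of 810 member fold changes under 27 alternatives each, 732 kept their sign, among them all of TERT. The cause of the changes below was not tested, except where fewer libraries or another spread enter by construction. Another scaling, by total counts, moved the median log2 fold change of all genes by -0.10 in LPS_ABS against LPS and by -0.13 in LPS_ABS against control; the share of calls that were higher was then 32.6% against 47.2%, and 26.7% against 43.8%.

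In LPS against control, fitting only the 2 groups called 3245 genes (1933 in the fit of all groups), 6 partners (3) and 23 of the pathway genes (11). DESeq2 and the GC correction each called 17 pathway genes, and the correction with the block 18. In LPS_ABS against LPS, fitting only the 2 groups called 3042 genes (4621) and 19 pathway genes (29). The GC correction called 1201 genes, 0 partners and 4 pathway genes there, and with the block 1412, 0 and 5. In LPS_ABS against control, 2 partners were called, and 4 with total counts (DKC1, GAR1, TERF1 and POT1), 5 with DESeq2, 4 with limma-voom and 1 with only the 2 groups (POT1). The GC correction called 1685 genes (4388), 0 partners and 17 pathway genes (30), and with the block 1750, 1 and 16. With 0 partners called under the GC correction (edgeR), 2 and 5 of 9 had an unadjusted p under 0.05.

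Leaving out 1 library at a time, with and without the GC correction, the calls ran from 873 to 3615 genes, 0 to 6 partners and 5 to 22 pathway genes in LPS against control. They ran from 187 to 4918 genes, 0 to 3 partners and 1 to 33 pathway genes in LPS_ABS against LPS, and from 587 to 4793 genes, 0 to 5 partners and 5 to 33 pathway genes in LPS_ABS against control.

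The signs that turned all belonged to partners not called in the fit of all libraries. In LPS_ABS against LPS, total counts gave -0.01 for DKC1, -0.06 for NOP10, -0.05 for TERF2 and -0.07 for TINF2. The GC correction there gave 0.39 for TERF1, -0.11 for TERF2 and -0.24 for TINF2, and with the block 0.38, -0.11 and -0.24. In LPS_ABS against control it gave -0.19 for NHP2 and 0.34 for TERF1, and with the block -0.20 and 0.33. With 1 library left out, with and without the correction, TERF1 ran from -0.12 to 0.06 in LPS against control. In LPS_ABS against LPS, DKC1 ran from -0.26 to 0.25, GAR1 from -0.04 to 0.29, NOP10 from -0.15 to 0.27, TERF1 from -0.40 to 0.47, TERF2 from -0.19 to 0.17 and TINF2 from -0.33 to 0.10. In LPS_ABS against control, ACD ran from -0.57 to 0.04, NHP2 from -0.28 to 0.22, TERF1 from -0.45 to 0.42 and TERF2 from -0.06 to 0.27.

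Groups share replicate numbers in the labels, but same-numbered libraries did not deviate together in every pair (correlations of deviations -0.04 to 0.20), so the numbers were not taken as pairs. With a replicate block, edgeR called 1960, 4838 and 4573 genes and 4, 3 and 3 partners in LPS against control, LPS_ABS against LPS and LPS_ABS against control (in the last DKC1, GAR1 and POT1, without NOP10), and of 6 libraries in each comparison 1, 2 and 4 correlated best with their own number. Pathway genes called with the block were 11, 29 and 31.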
